A study of Arabidopsis thaliana with 33 samples.

Results

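HPR, LrgB, AT1G11860 and AT1G80380 encode a peroxisomal enzyme, a plastid transporter, a mitochondrial enzyme subunit and a plastid kinase of photorespiration. They were chosen by name, with earlier results of these data known. Each was read by the probe set that names that gene alone, and they are 4 of the 6832 genes named this way on the arrays. HPR (locus AT1G68010) was read by probe set 260014_at, LrgB (locus AT1G32080) by 255719_at, AT1G11860 by 264394_at and AT1G80380 by 260284_at. All 4 genes lie on chromosome 1 in the table of assembly TAIR10.1. A further probe set that names HPR together with AT5G05370 was left out. Its values had a median of 1.78 and an r of -0.48 with the probe set of HPR alone over the 33 arrays.

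Photorespiration starts when Rubisco, the enzyme that fixes CO2 in the Calvin-Benson cycle, takes up O2 in its place and makes phosphoglycolate. The carbon passes through chloroplast, peroxisome and mitochondrion and returns to the chloroplast as phosphoglycerate, with CO2 and ammonia released on the way. More CO2 around the leaf favours fixation over the uptake of O2, and the flux depends on light. In this route AT1G11860 is the T protein of glycine decarboxylase, the mitochondrial complex that splits glycine. HPR reduces hydroxypyruvate to glycerate in the peroxisome. LrgB exchanges glycolate and glycerate across the plastid envelope, and AT1G80380 is the glycerate kinase that hands the carbon back to the Calvin-Benson cycle.

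Arabidopsis thaliana plants of ecotype Col-0 grew in chambers at 370 ppm (ambient) or 750 ppm (elevated) CO2 and received 6 mM (ample) or 0.25 mM (limiting) NH4NO3. The youngest fully expanded leaves were cut on day 35 at midday or at midnight, and leaf RNA was hybridised to 33 Affymetrix arrays. The 8 groups held 3 arrays (elevated CO2, ample N, midday), 5 arrays (ambient and elevated CO2, ample N, midnight) or 4 arrays (each other combination). The labels name no mutation or transgene. Whether replicates came from separate plants, pools or chambers is not in the labels. The p-values therefore measure only the spread between these samples, and CO2 level and growth chamber cannot be told apart. Every value below is a log2 level relative to the median of its own array, so a level of 5 lies 5 doublings above that median, and a difference shared by most genes cannot be seen. The number of arrays limits the precision.

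Leaf identity was checked with marker genes. The 4 measured of the 7 listed mesophyll markers lay above the array median in every group, with group means of 5.61 to 6.45 for RCA, 5.05 to 6.30 for LHCB4.1, 3.99 to 5.81 for PSAN and 2.96 to 6.25 for LHCB4.2. FAMA, which specifies guard cells, lay between -2.28 and -1.67, and the guard cell marker GC1 between 0.42 and 1.72. No listed marker of epidermis, phloem, bundle sheath, xylem or root was measured. On array quality, replicate 4 of ambient CO2, ample N, midnight stood apart. The log2 ratio of its control probe sets at the 3' end to those at the 5' end was 4.41, against 1.46 to 2.35 on the other arrays, and its mean correlation with its own group was 0.89, the lowest of all. The next lowest was elevated CO2, limiting N, midnight replicate 1, at 0.932, with a 3' to 5' ratio of 1.72 within the range of the others. Ambient CO2, ample N, midnight replicates 2 and 3 were close to it, at 0.934 each. Ambient CO2, ample N, midnight replicate 4 held the highest value of its group for all 4 genes. Elevated CO2, limiting N, midnight replicate 1 held the lowest of its group for all 4, as did replicate 3 of each elevated CO2, midday group. Leaving out both of these midnight arrays takes away a highest ambient and a lowest elevated array, which makes midnight CO2 differences smaller by construction. They are called below the arrays that stand apart, and results that rest on them are given with and without them. Their part in the results is shown by those values and was not tested further.

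HPR, the reductase, had its 4 highest group means in the 4 midday groups. At ample N and midday its log2 level was 5.88, 6.08, 5.87 and 5.89 at ambient CO2 and 5.67, 5.79 and 5.31 at elevated CO2. At limiting N and midday it was 5.81, 5.78, 5.65 and 5.67 at ambient and 5.57, 5.77, 5.47 and 5.56 at elevated CO2. Every elevated array lay below every ambient array at ample N, while the groups overlapped at limiting N, where 3 of 4 elevated arrays lay below all ambient arrays. At ample N and midnight HPR stood at 5.06, 5.22, 5.30, 5.98 and 5.42 at ambient and 5.46, 5.18, 4.66, 5.14 and 4.63 at elevated CO2. Under limiting N at midnight it stood at 5.47, 5.29, 5.24 and 5.03 at ambient and 4.18, 4.90, 4.84 and 4.70 at elevated CO2. The ample N groups overlapped at midnight and the limiting N groups did not, with all 4 elevated arrays under the ambient ones. Group means ran from 5.93 ± 0.10 (SD, n = 4; ambient CO2, ample N, midday) to 4.65 ± 0.33 (SD, n = 4; elevated CO2, limiting N, midnight). In that order 3 of 7 neighbouring means were farther apart than the larger of their SDs, and the other 4 pairs of neighbours did not differ beyond their spread.

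LrgB, the transporter, varied among arrays of a group by an SD of 0.12 to 0.57. Its log2 level at ample N and midday was 4.097, 3.92, 3.98 and 3.80 at ambient CO2 and 3.73, 3.81 and 3.31 at elevated CO2. At limiting N and midday the arrays gave 4.104, 3.79, 4.04 and 4.34 at ambient and 3.46, 3.65, 3.38 and 4.101 at elevated CO2. In both cases a single elevated array reached into the ambient range. At ample N and midnight LrgB was at 3.49, 3.09, 4.08, 4.51 and 3.41 in the ambient group and 3.30, 2.41, 3.21, 3.17 and 3.08 in the elevated group. The limiting N, midnight arrays gave 3.96, 3.15, 3.64 and 3.74 at ambient and 2.77, 3.35, 3.55 and 3.28 at elevated CO2. Both midnight comparisons overlapped, with 2 of 5 and 1 of 4 elevated arrays below all ambient ones. The means ran from 4.07 ± 0.23 (SD, n = 4; ambient CO2, limiting N, midday) to 3.03 ± 0.36 (SD, n = 5; elevated CO2, ample N, midnight). Only 1 of the 7 gaps between neighbouring means exceeded the larger SD, that between elevated CO2, ample N, midday and elevated CO2, limiting N, midnight.

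AT1G11860, the glycine decarboxylase T protein, had CO2 groups without overlap at midday and with overlap at midnight, at a similar average CO2 difference. Its log2 level at ample N and midday was 5.31, 5.23, 5.40 and 5.30 at ambient CO2 and 5.11, 5.03 and 4.58 at elevated CO2. Under limiting N at midday it was 5.20, 5.13, 5.24 and 5.46 at ambient and 4.64, 4.88, 4.29 and 5.10 at elevated CO2. At midday no elevated array of this gene reached the lowest ambient array of the same N supply. That held for 7.17% of all probe sets at ample N and 6.58% at limiting N. The ample N, midnight values were 4.73, 4.61, 5.26, 5.59 and 4.83 at ambient and 4.75, 3.99, 4.67, 4.85 and 4.37 at elevated CO2. The limiting N, midnight values were 4.96, 4.44, 5.03 and 4.93 at ambient and 3.96, 4.80, 4.60 and 4.52 at elevated CO2. At midnight the groups overlapped at both N supplies. Averaged over N supplies, the log2 CO2 difference of this gene was -0.47 at midday and -0.42 at midnight. The SD of its ambient groups at ample and limiting N was 0.07 and 0.14 at midday and 0.41 and 0.27 at midnight. Group means ranged from 5.31 ± 0.07 (SD, n = 4; ambient CO2, ample N, midday) to 4.47 ± 0.36 (SD, n = 4; elevated CO2, limiting N, midnight), and 0 of 7 neighbouring means differed by more than the larger SD.

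AT1G80380, the glycerate kinase, overlapped between ambient and elevated CO2 in all 4 conditions. At ample N and midday its log2 level was 3.67, 3.54, 3.56 and 3.44 at ambient CO2 and 3.34, 3.54 and 3.06 at elevated CO2. At limiting N and midday it was 3.70, 3.30, 3.71 and 3.79 at ambient and 3.03, 3.29, 3.01 and 3.38 at elevated CO2. At ample N a single elevated array, replicate 2, reached into the ambient range. At limiting N the overlap was between elevated replicate 4 (3.38) and ambient replicate 2 (3.30), and the groups separate without either of them. The ample N, midnight arrays gave 3.37, 3.01, 3.45, 3.97 and 3.27 at ambient and 3.07, 2.45, 2.92, 3.18 and 3.06 at elevated CO2. The limiting N, midnight arrays gave 3.44, 3.07, 3.35 and 3.15 at ambient and 2.56, 3.22, 3.01 and 2.82 at elevated CO2. Both midnight comparisons overlapped. The means went from 3.63 ± 0.22 (SD, n = 4; ambient CO2, limiting N, midday) to 2.90 ± 0.28 (SD, n = 4; elevated CO2, limiting N, midnight), with 0 of 7 neighbours farther apart than the larger SD.

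**Figure D1:**
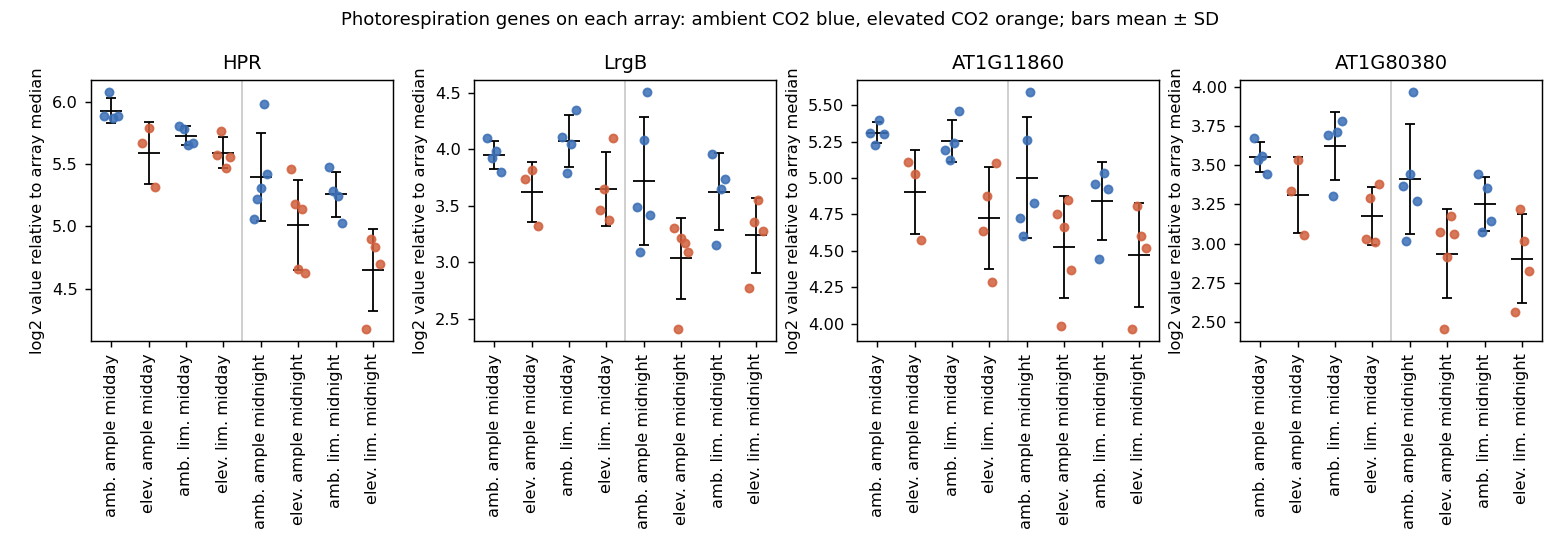
Log2 level relative to the array median (vertical axes, scaled separately) of HPR, LrgB, AT1G11860 and AT1G80380 on each of the 33 arrays in the 8 groups, ambient CO2 in blue and elevated CO2 in orange, with bars for the mean ± SD. In each of the 4 conditions the elevated CO2 mean of all 4 genes lies below the ambient mean, and the HPR means run from 5.93 (ambient CO2, ample N, midday) to 4.65 (elevated CO2, limiting N, midnight).

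The comparison of elevated with ambient CO2 asked how these genes stood at the higher CO2 level in each N supply and time of day. All 16 estimates, 4 genes in 4 conditions, were below 0, and 25% of all 12772 tested probe sets were also below 0 in all 4 conditions. The largest for HPR came under limiting N at midnight, at -0.60 on the log2 scale (SE 0.18, limma adjusted p = 0.124). For LrgB it came with ample N at midnight (-0.68, SE 0.22, adjusted p = 0.121), and for AT1G11860 with limiting N at midday (-0.53, SE 0.21, adjusted p = 0.326). AT1G80380 differed most with ample N at midnight (-0.48, SE 0.16, adjusted p = 0.130). The smallest estimate was that of HPR at limiting N and midday, -0.13 (95% confidence interval -0.51 to 0.24). None of the 16 passed the threshold of an adjusted p of 0.05 over all probe sets, and the share of all probe sets called was 0% at midday for each N supply and, at midnight, 0% with ample N and 0.0313% with limiting N. At an unadjusted p under 0.05 stood 7 of the 16. These were 0 of 4 at ample N and midday (7.52% of all probe sets), 2 of 4 at limiting N and midday (11.7%), 4 of 4 at ample N and midnight (18.8%) and 1 of 4 at limiting N and midnight (17.6%). Without both arrays that stand apart, the midnight differences named here were -0.44 for HPR (adjusted p = 0.502), -0.48 for LrgB (adjusted p = 0.234) and -0.34 for AT1G80380 (adjusted p = 0.264), and the 8 midnight estimates lay between -0.48 and -0.20.

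Without overlap, with every elevated array below every ambient array, were 2 of 4 genes at ample N and midday (HPR and AT1G11860), against 7.17% of all probe sets. At limiting N it was 1 of 4 at midday (AT1G11860, against 6.58%) and 1 of 4 at midnight (HPR, against 6.01%). At ample N and midnight it was 0 of 4, against 1.21%. Both midnight counts were the same without both arrays that stand apart, against 6.68% at limiting N and 1.94% at ample N.

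Averaged over the 4 conditions, all 4 genes were lower at elevated CO2 and all 4 passed limma's test. HPR fell by 22.4% (95% confidence interval 11.7 to 31.8%), at -0.37 on the log2 scale (SE 0.09, adjusted p = 0.00588). LrgB fell by 27.0% (13.6 to 38.4%), at -0.45 (SE 0.12, adjusted p = 0.00825). AT1G11860 fell by 26.6% (14.7 to 36.8%), at -0.45 (SE 0.11, adjusted p = 0.0044). AT1G80380 fell by 23.1% (12.9 to 32.2%), at -0.38 (SE 0.09, adjusted p = 0.00396). In bulk leaf RNA, fewer cells of a type and less RNA per cell cannot be told apart.

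Of all probe sets, 12.9% were called lower and 21.3% were called in either direction in this average. Since the 4 genes were chosen with earlier results of these data known, setting them against these shares is no test. The median over all probe sets was -0.03, and the share of probe sets with a more negative value was 6.37% for HPR, 2.77% for LrgB, 3.12% for AT1G11860 and 5.67% for AT1G80380. Leaving out both arrays that stand apart kept 4 of 4, with -0.29 for HPR and for the others -0.32 to -0.37 (adjusted p 0.0067 to 0.0166). All 4 also kept the call without each single array in turn. After quantile normalization, which gives all arrays the same distribution, all 4 were still called. HPR was then at -0.24 (limma adjusted p = 0.0254) and the others at -0.32 to -0.38 (adjusted p 0.00786 to 0.0165). The value found at the mean percentile of each gene within an array itself differed between elevated and ambient CO2. This shift was -0.17 for HPR, -0.074 for LrgB, -0.11 for AT1G11860 and -0.056 for AT1G80380. Of the 2 measured guard cell markers, GC1 was also lower at elevated CO2 (-0.42, SE 0.13, limma adjusted p = 0.0184) and FAMA was not called (-0.13, adjusted p = 0.421). The 4 mesophyll markers stood at -0.12 to -0.19 and were not called (lowest adjusted p = 0.0584, for LHCB4.1). The part of these markers in the difference was not tested.

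The call depended on the zero point of the arrays. The RNA spike-in probe sets, which are no plant genes, were themselves lower at elevated CO2 (34 of 37, median -0.23), as were the 14 of 14 probe sets of the hybridisation controls among them (median -0.25). With each array centred on the spike-ins in place of its median, the differences were -0.15 for HPR, -0.24 for LrgB, -0.23 for AT1G11860 and -0.16 for AT1G80380, and 0 of 4 passed (adjusted p 0.0696 to 0.183). With the hybridisation controls alone they were -0.11 to -0.20, and 0 of 4 passed (adjusted p 0.29 to 0.532). These centrings moved the median of all probe sets to 0.18 and 0.22, so the position of the genes among all probe sets was the same under each. Why the spike-ins differed was not tested.

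**Figure D2:**
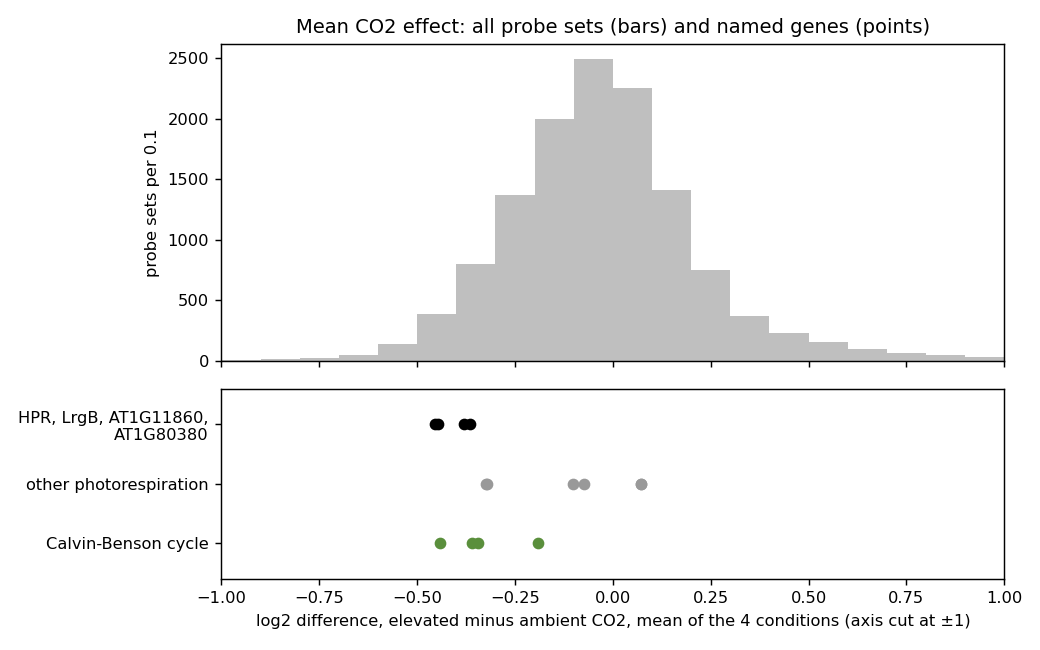
Histogram of the log2 difference between elevated and ambient CO2, averaged over the 4 conditions, for the tested probe sets (upper panel, vertical axis in probe sets per 0.1), with the same difference for named genes as points (lower panel). HPR, LrgB, AT1G11860 and AT1G80380 lie between -0.45 and -0.37. The 6 other measured photorespiration genes lie between -0.33 and 0.07, with 2 of them on top of each other near -0.32 and 2 near 0.07. The 4 Calvin-Benson genes lie between -0.44 and -0.19.

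Averages over part of the conditions, added after the data had been seen, passed for all 4 genes at midnight. There HPR was at -0.49 on the log2 scale (SE 0.12, adjusted p = 0.0133), LrgB at -0.53 (SE 0.16, adjusted p = 0.0293), AT1G11860 at -0.42 (SE 0.14, adjusted p = 0.0467) and AT1G80380 at -0.41 (SE 0.12, adjusted p = 0.0237). In that average 8.24% of all probe sets were called lower and 13.4% in either direction. The midnight calls rested on few arrays. The count was 0 of 4 without elevated CO2, limiting N, midnight replicate 1 and 0 of 4 without both arrays that stand apart, where the differences were -0.34, -0.36, -0.27 and -0.29 (adjusted p 0.0779 to 0.251). It was 1 of 4 without ambient CO2, limiting N, midnight replicate 1 or elevated CO2, ample N, midnight replicate 2, and 2 of 4 without ambient CO2, limiting N replicate 4 or ambient CO2, ample N replicate 3 or 4 of that time.

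At midday the average over N supplies was -0.24 for HPR, -0.38 for LrgB, -0.47 for AT1G11860 and -0.35 for AT1G80380, and 0 of 4 passed (adjusted p 0.12 to 0.379), against 1.34% of all probe sets. At an unadjusted p under 0.05 the count was 3 of 4, against 16.7% of all probe sets. Averaged over time, 0 of 4 passed at ample N (-0.36 to -0.51, against 2.2% called) and 0 of 4 at limiting N (-0.37 to -0.45, against 3.64%), with 4 of 4 at an unadjusted p under 0.05 in each (19.7% of all probe sets at ample N and 23.9% at limiting N). At ample N, leaving out ambient CO2, midnight replicate 2 gave 2 calls. At limiting N, 2 calls followed from leaving out elevated CO2, midnight replicate 2 or elevated CO2, midday replicate 4, and 1 call from leaving out elevated CO2, midnight replicate 3 or ambient CO2, midday replicate 2.

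**Figure D3:**
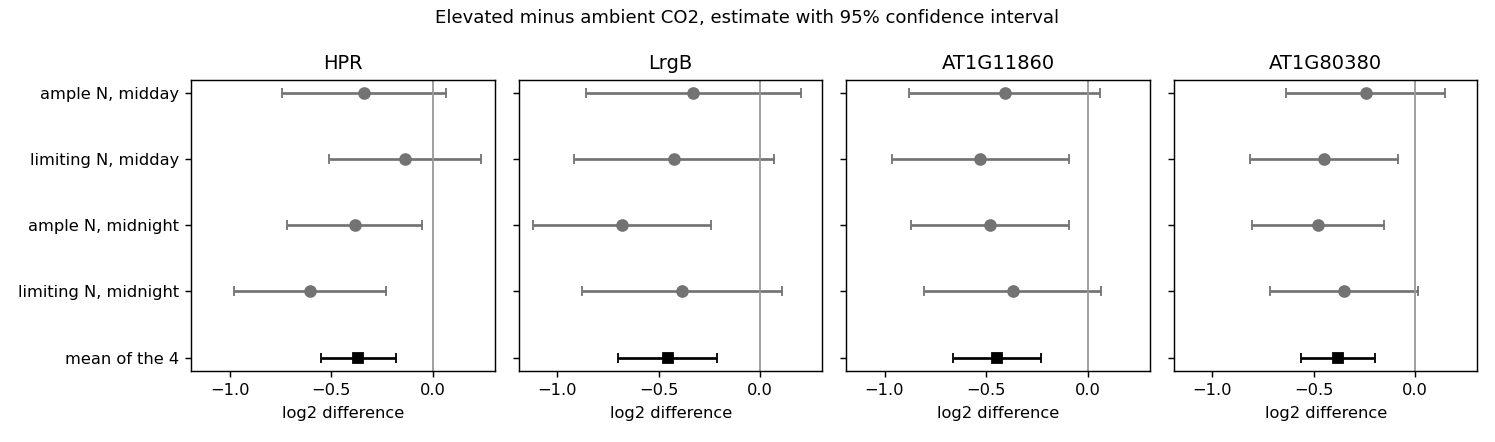
Log2 difference between elevated and ambient CO2 (horizontal axis) for HPR, LrgB, AT1G11860 and AT1G80380 in each of the 4 conditions (circles) and averaged over them (squares), with 95% confidence intervals. All 16 single estimates lie below 0, from -0.13 to -0.68, and the 4 averages lie between -0.37 and -0.45 with intervals that do not reach 0.

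Whether the CO2 difference varied with N supply or time was tested with interaction terms. The CO2 difference at limiting N minus that at ample N was 0.20 (95% confidence interval -0.35 to 0.75) for HPR at midday and -0.22 (-0.72 to 0.28) at midnight. For LrgB it was -0.10 (-0.82 to 0.63) and 0.30 (-0.36 to 0.96), for AT1G11860 -0.12 (-0.76 to 0.52) and 0.11 (-0.47 to 0.70), and for AT1G80380 -0.20 (-0.74 to 0.33) and 0.13 (-0.36 to 0.62). The CO2 difference at midday minus that at midnight was 0.26 (-0.11 to 0.63) for HPR, 0.16 (-0.33 to 0.65) for LrgB, -0.04 (-0.48 to 0.39) for AT1G11860 and 0.07 (-0.29 to 0.43) for AT1G80380. limma called 0 of 4 genes in each of the 3 terms, and 0 of 4 had an unadjusted p under 0.05, with 0% of all probe sets called and 2.33, 2.72 and 5.44% at that unadjusted p. The intervals are wide enough to hold differences as large as the CO2 differences themselves.

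Nitrogen supply was compared as limiting minus ample NH4NO3. Averaged over CO2 and time, HPR stood at -0.18 on the log2 scale (SE 0.09, adjusted p = 0.410), LrgB 0.06 (SE 0.12, adjusted p = 0.868), AT1G11860 -0.11 (SE 0.11, adjusted p = 0.702) and AT1G80380 -0.06 (SE 0.09, adjusted p = 0.814). limma called 0 of 4, against 1.41% of all probe sets, and 0 of 4 had an unadjusted p under 0.05, against 13.6%. The 16 single differences ran from -0.36 (HPR, elevated CO2, midnight, adjusted p = 0.709) to 0.20 (LrgB, same condition, adjusted p = 0.954). None was called and 1 had an unadjusted p under 0.05. Of all probe sets, 0.00783% were called and 3.6% had such a p at ambient CO2 and midday, 0.0548 and 6.27% at elevated CO2 and midday, 0.345 and 9.85% at ambient CO2 and midnight and 0.164 and 6.87% at elevated CO2 and midnight. For N supply by time, 0 of 4 genes were called, 0 of 4 had an unadjusted p under 0.05, and 0.102% of all probe sets were called, with 6.22% at that unadjusted p.

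Midday was compared with midnight. Each was a single time point, so light and the hour of the day cannot be told apart. HPR was higher at midday in each of the 4 conditions and passed the test in all of them. The log2 difference was 0.53 (SE 0.17, adjusted p = 0.0151) at ambient CO2 and ample N, 0.58 (SE 0.19, adjusted p = 0.0183) at elevated CO2 and ample N, 0.47 (SE 0.18, adjusted p = 0.0445) at ambient CO2 and limiting N and 0.94 (SE 0.18, adjusted p = 0.00017) at elevated CO2 and limiting N. The other 3 genes had 12 estimates above 0, from 0.14 to 0.59, none of which passed. Of these, 2 had an unadjusted p under 0.05, LrgB at elevated CO2 and ample N and AT1G80380 at ambient CO2 and limiting N, where 42.9% and 44% of all probe sets had one (48.2% at ambient CO2 and ample N, 43.9% at elevated CO2 and limiting N). So 1 of 4 genes was called higher in each condition, against 19.9, 17.7, 18.6 and 18.7% of all probe sets called higher and 40.6, 33.3, 35.5 and 35.1% called in either direction, in the same order. A difference above 0 in all 4 conditions was found in 35.7% of all probe sets.

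Single arrays moved several of these time differences by over 1.5 times. At ambient CO2 and ample N, the lowest estimate, that of AT1G80380 (0.14), was 0.28 without midnight replicate 4, the array with the high 3' to 5' ratio, and 0.040 without midnight replicate 2. LrgB there was 0.43 and 0.078 in place of 0.23, and AT1G11860 0.45 without replicate 4 in place of 0.31. At elevated CO2 and limiting N, leaving out midnight replicate 1 gave 0.084 in place of 0.25 for AT1G11860, 0.16 in place of 0.27 for AT1G80380 and 0.25 in place of 0.41 for LrgB. Midday replicate 4 of that condition moved LrgB to 0.26 and AT1G11860 to 0.13 when left out, and midday replicate 3 moved AT1G11860 to 0.40. Without both arrays HPR was at 0.68 (ambient CO2, ample N, adjusted p = 0.000434) and 0.78 (elevated CO2, limiting N, adjusted p = 0.000315) and kept its call in all 4 conditions. A call was added for AT1G11860 at ambient CO2 and ample N (adjusted p = 0.0447), LrgB at elevated CO2 and ample N (adjusted p = 0.0275) and AT1G80380 at ambient CO2 and limiting N (adjusted p = 0.0485).

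Every midnight array lay below every midday array for 0 of 4 genes at ambient CO2 and ample N (14.1% of all probe sets) and for LrgB at elevated CO2 and ample N (18.4%). The same held for HPR and AT1G11860 at ambient CO2 and limiting N (21.1%) and for HPR at elevated CO2 and limiting N (16.4%). Without both arrays that stand apart HPR separated at ambient CO2 and ample N as well (18.8%), since replicate 4 held the one midnight value of HPR above the lowest midday value. The other 3 counts were then the same, against 20% at elevated CO2 and limiting N. Counts near these shares are no result about the genes.

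Averaged over the 4 conditions, HPR was 1.55-fold higher at midday (log2 0.63, SE 0.09, adjusted p = 5.16e-07) and LrgB 1.34-fold (0.42, SE 0.12, adjusted p = 0.00296). AT1G11860 was 1.26-fold higher (0.34, SE 0.11, adjusted p = 0.00629) and AT1G80380 1.22-fold (0.29, SE 0.09, adjusted p = 0.0052). All 4 were called higher, against 33.4% of all probe sets called higher and 64.5% called in either direction. The 4 mesophyll markers were also called higher, from 0.55 for RCA to 2.76 for LHCB4.2, and both guard cell markers lower, GC1 (-0.62, adjusted p = 9.57e-05) and FAMA (-0.25, adjusted p = 0.0462). Their part in the time difference was not tested. The 3' to 5' log2 ratio of the arrays also moved with time, at 1.46 to 1.94 (median 1.83) at midday and 1.72 to 4.41 (median 2.104) at midnight. With that ratio as a covariate the time averages were 0.75 for HPR, 0.56 for LrgB, 0.46 for AT1G11860 and 0.40 for AT1G80380, and all 4 were called (adjusted p 1.07e-08 to 0.000429). The covariate fit held the array with the ratio of 4.41, against at most 2.35 on the others. Within groups, the genes followed the ratio less without both arrays that stand apart (r -0.04 to 0.21) than with them (r 0.46 to 0.57). Without both arrays and without the covariate the time averages were 0.63, 0.43, 0.33 and 0.30, with 4 of 4 called.

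These time differences depended on the scaling. After quantile normalization, which gives all arrays the same distribution, 2 of 4 were called, with 0.22 for HPR (adjusted p = 0.0126) and 0.26 for LrgB (adjusted p = 0.0371). AT1G11860 was then at 0.02 (adjusted p = 0.888) and AT1G80380 at 0.16 (adjusted p = 0.0854), and HPR kept its call only at elevated CO2 and limiting N (0.51, adjusted p = 0.00936) and stood at -0.07 at ambient CO2 and limiting N.

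The value found at the 99.4th percentile of an array, the mean rank of HPR there, was itself 0.42 higher at midday than at midnight. At the mean percentile of LrgB this shift was 0.15, at that of AT1G11860 0.30 and at that of AT1G80380 0.13. With spike-in centring 1 of 4 was called (HPR, 0.43, adjusted p = 7.15e-05). With hybridisation controls, 14 of 14 of which were higher at midday (median 0.57), HPR was at 0.06, LrgB at -0.15, AT1G11860 at -0.23 and AT1G80380 at -0.28 (adjusted p = 0.0457), the latter called lower. The other 23 spike-in probe sets had no such common shift, with 9 higher and 14 lower at midday (median -0.035). Across these scalings the sign changed for LrgB, AT1G11860 and AT1G80380, and HPR stayed above 0, with a call in 3 of the 4.

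**Figure D4:**
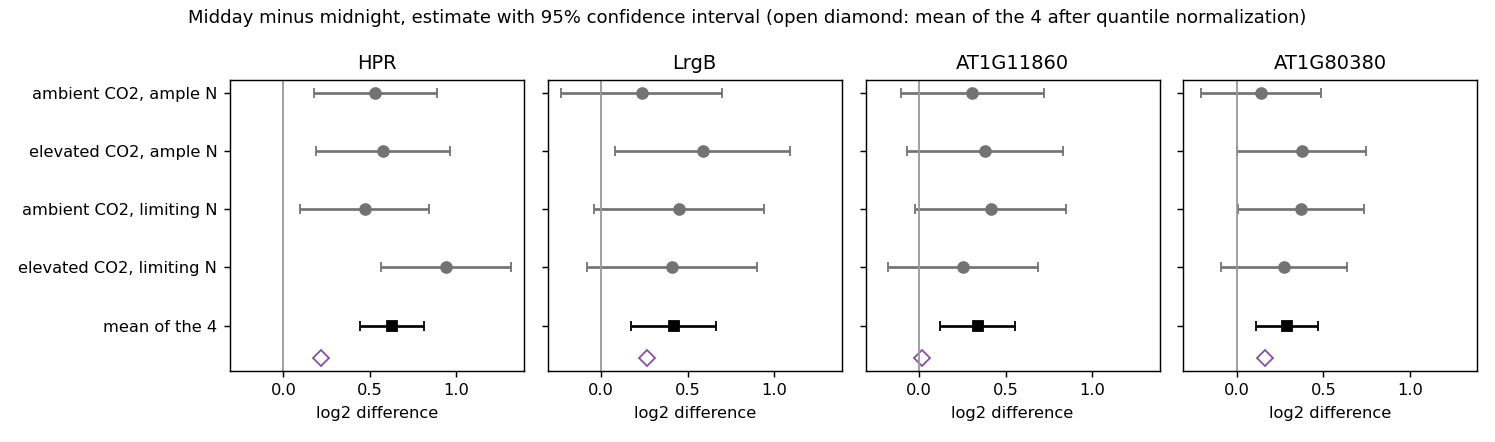
Log2 difference between midday and midnight (horizontal axis) for the 4 genes in each of the 4 conditions (circles) and averaged (squares), with 95% confidence intervals, and the average after quantile normalization (open diamonds). HPR lies highest at elevated CO2 and limiting N (0.94), and quantile normalization moves the average of HPR from 0.63 to 0.22 and that of AT1G11860 from 0.34 to 0.02.

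The 4 genes were set against each other by their log2 difference within each array, in 6 pairs and 3 factors, with a permutation test of the labels and adjustment over the 18 tests. The time difference of HPR exceeded that of AT1G80380 by 0.34 (two-sided permutation adjusted p = 0.015), that of AT1G11860 by 0.29 (adjusted p = 0.0612) and that of LrgB by 0.21 (adjusted p = 0.23). After quantile normalization the first of these was 0.06 (adjusted p = 0.654) and the LrgB minus AT1G11860 difference passed in its place (0.25, adjusted p = 0.00864). For N supply, LrgB minus AT1G11860 was 0.18 (adjusted p = 0.015) and no other pair passed. It was 0.17 after quantile normalization and no longer passed (adjusted p = 0.0647). For CO2 none of the 6 pairs passed (adjusted p 0.368 to 0.869), with differences between genes of -0.08 to 0.09 on the log2 scale. A p that misses the threshold does not show that the genes respond alike.

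Array by array, 3 of the genes moved together and HPR less so. After the group means were taken off, the correlation over 33 arrays was 0.91 between LrgB and AT1G11860, 0.89 between LrgB and AT1G80380 and 0.86 between AT1G11860 and AT1G80380. HPR had 0.45 with LrgB, 0.53 with AT1G11860 and 0.51 with AT1G80380. Without both arrays that stand apart the first 3 were 0.79 to 0.87 and those of HPR 0.10 to 0.24. The 4 genes lay on the same side of their group means on 16 of 33 arrays. The deviations also followed the 3' to 5' control ratio of the arrays (r 0.46 to 0.57 over 33 arrays), and did so less over the 31 arrays without both (r -0.04 to 0.21). These are descriptions: the genes share arrays and their scaling.

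**Figure D5:**
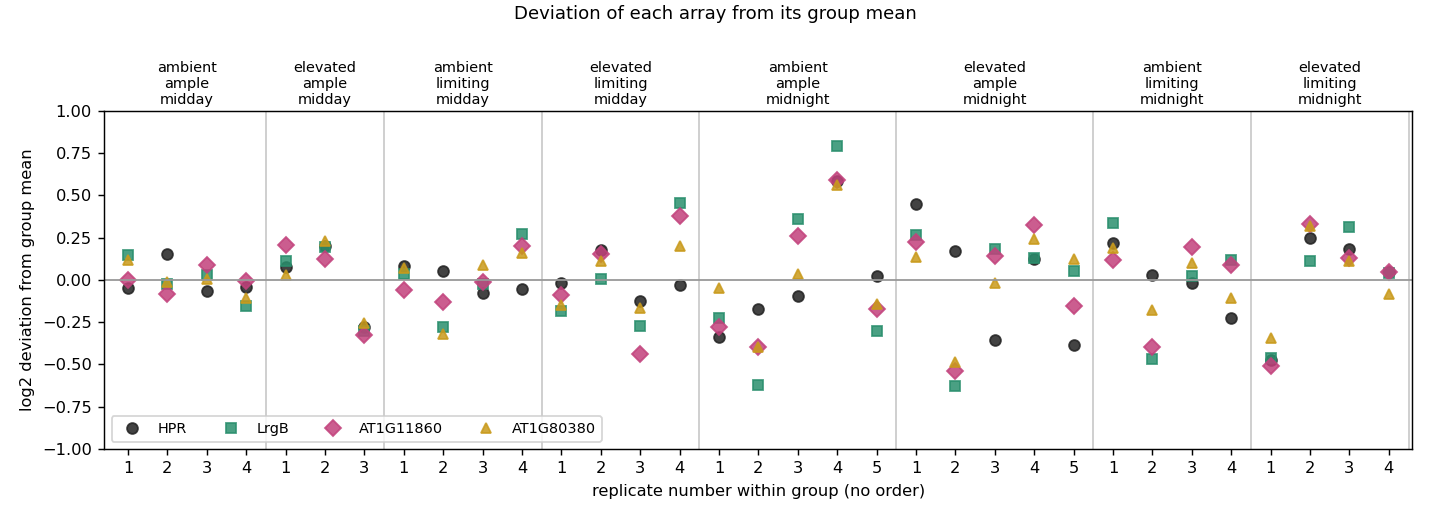
Deviation of each array from its group mean in log2 units (vertical axis) for the 4 genes, by group and replicate number. The 4 markers of ambient CO2, ample N, midnight replicate 4 lie highest in their group and those of elevated CO2, limiting N, midnight replicate 1 lowest in theirs, and LrgB, AT1G11860 and AT1G80380 lie close together on most arrays while HPR departs from them on several.

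Among the 6876 other probe sets that name a single gene, the pattern of HPR over the 33 arrays was most like that of PRK, which encodes phosphoribulokinase (Pearson r = 0.93). ATPC1, the gamma subunit of the chloroplast ATP synthase, and CaS, a thylakoid calcium-sensing protein, followed at 0.93 each. The 3 other genes of photorespiration came at ranks 461 to 664 for HPR. LrgB was most like NTRC, a plastid thioredoxin reductase (0.94), CRR21, a plastid RNA editing factor (0.93), and AT1G80380 (0.93). AT1G11860 was most like AT1G80380 (0.93), LrgB (0.92) and AT5G22620 (0.92), and AT1G80380 most like AT1G76450 (0.94), AT1G11860 (0.93) and LrgB (0.93). So LrgB, AT1G11860 and AT1G80380 ranked between 1 and 4 in each other's order over all 33 arrays.

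With the midday and midnight means taken off, PRK still came first for HPR (0.89), followed by AT5G04810 (0.88) and ATAB2 (0.88). NTRC (0.92), CRR21 (0.92) and AT1G80380 (0.91) led for LrgB, AT5G38520 (0.94), AT1G80380 (0.91) and FTSZ2-2 (0.91), a plastid division protein, for AT1G11860, and AT1G76450 (0.94), AT5G08650 (0.92) and AT1G11860 (0.91) for AT1G80380. PRK and LrgB lie near each other on chromosome 1, with 1 protein-coding gene between them in the table of TAIR10.1.

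Of 31 other listed genes of photorespiration, 6 were measured. For the average CO2 difference 2 of them were called lower and 4 were not called, against 12.9% of all probe sets called lower. GDCH3, an H protein of glycine decarboxylase, was at -0.32 (SE 0.06, adjusted p = 0.00154), and 10-FDF2, a mitochondrial formyltetrahydrofolate deformylase, at -0.33 (SE 0.10, adjusted p = 0.0223). The call of 10-FDF2 was lost without elevated CO2, ample N, midday replicate 3 (-0.26, adjusted p = 0.071). With spike-in centring neither GDCH3 nor 10-FDF2 passed (-0.10 and -0.11). HPR2, the cytosolic hydroxypyruvate reductase, was at -0.10 (adjusted p = 0.223), or 0.11 with spike-in centring, and BASS6, a plastid glycolate transporter, at 0.07 (adjusted p = 0.619). The median of the 6 was -0.09, against -0.41 for the 4 genes above and -0.03 for all probe sets. The 4 genes and the lists were chosen with earlier results of these data known, so this comparison is a description and no test. The 6 genes also differed in level. Group means of GDCH2 (-0.48 to 0.10), BASS6 (-0.97 to -0.03) and 10-FDF2 (-0.56 to 0.06) lay near or below the array median. Those of HPR2 (1.67 to 2.05) and 10-FDF1 (1.84 to 2.23) lay above it, and those of GDCH3 were highest (4.13 to 4.66). The part of level in the CO2 differences was not tested. At midday 3 of the 6 were called higher and 3 were not, against 33.4% of all probe sets called higher and 64.5% in either direction. Called higher were BASS6 (0.44), HPR2 (0.25) and 10-FDF2 (0.23), with a median of 0.19 over the 6. With spike-in centring 0 of these 3 passed, with BASS6 at 0.24 (adjusted p = 0.0911), HPR2 at 0.054 (adjusted p = 0.585) and 10-FDF2 at 0.030 (adjusted p = 0.812). All 6 stood below 0 when the arrays were centred on the hybridisation controls. The call of 10-FDF2 (adjusted p = 0.0486) was also lost after quantile normalization (adjusted p = 0.0546), without both arrays that stand apart (adjusted p = 0.0624) and without any of 20 single arrays of 33. For N supply 0 of 6 were called (median -0.01), against 1.41% of all probe sets.

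The Calvin-Benson cycle, into which photorespiration returns its carbon, had 4 of 23 listed genes measured. At elevated CO2 3 of them were called lower, against 12.9% of all probe sets. These were PRK (-0.36, adjusted p = 0.00263), SBPASE, the sedoheptulose bisphosphatase (-0.44, adjusted p = 0.00518), and PGK2, a plastid phosphoglycerate kinase (-0.34, adjusted p = 0.00492). RCA, the Rubisco activase, was at -0.19 (adjusted p = 0.0749), and at 0.002 after quantile normalization. With spike-in centring these 3 did not pass (-0.13 to -0.23) and RCA was at 0.03. The median of the 4 was -0.35. At midday SBPASE (0.64), RCA (0.55) and PRK (0.42) were called higher and PGK2 lower (-0.21, adjusted p = 0.0331). Of all probe sets, 33.4% were called higher and 64.5% in either direction. The calls of these Calvin-Benson genes also depended on the scaling. After quantile normalization PRK stood at -0.05, RCA at 0.083 (adjusted p = 0.156) and SBPASE at 0.29 (adjusted p = 0.00359), and PGK2 at -0.36 (adjusted p = 0.00021). PGK2 was not called with the 3' to 5' ratio as covariate (-0.18, adjusted p = 0.0848) or without any of 7 single arrays. Centred on the hybridisation controls, SBPASE was at 0.063 (adjusted p = 0.616) and RCA and PRK were below 0. For N supply 0 of 4 were called, against 1.41% of all probe sets.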

How the data were processed

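The authors' deposited table holds log2 values for 12826 probe sets on 33 arrays, each array with a median of 0. Per the labels, total leaf RNA was biotin-labelled with a 3' IVT kit. How probes were summarised and corrected is not given in the sources used here. Of the probe sets, 54 are controls and 12772 were tested. In the platform annotation 6898 name 1 gene, 272 several and 5602 are not listed, and 6877 of the 6898 matched the table of TAIR10.1. Sequences are not shown here.

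Group means of all 33 arrays were fitted together with limma 3.58.1 (R 4.3.3), without a block. P-values were Benjamini-Hochberg adjusted over all 12772 within each of 19 contrasts and 4 added averages, with a threshold of 0.05. All adjusted p-values of genes are limma's. Pairs of the 4 genes were tested by permuting labels within strata of the other factors (100000 resamples). The genes and lists were chosen with earlier results of these data known. The named genes were the 4 genes, up to 4 members of each list with the smallest p, and for each gene the 3 of most like pattern. Alternatives were quantile normalization, leaving out the 30% dimmest probe sets, a replicate block, array weights, eBayes with trend and robust, fewer arrays, each array left out in turn, and, chosen after seeing the data, leaving out both arrays that stand apart, the 3' to 5' ratio as covariate and centring on 37 spike-in or 14 hybridisation control probe sets. The fit was also run on simulated data, with independent noise for each probe set and no shift shared within an array. That run cannot show how the calls fare under such shifts.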

Additional observations from a re-analysis of the deposited data

Results flagged for a closer look

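Of 35 groups of values tested for a sample far from the others, 5 were flagged, and chance flags about 1 in 20. HPR at ambient CO2, ample N, midday was 6.08 in replicate 2, above the 5.87 to 5.89 of the others. LrgB at elevated CO2, ample N, midnight was 2.41 in replicate 2, below the 3.08 to 3.30 of the others. The log2 ratio of control probe sets at the 3' end to those at the 5' end stood apart on 3 arrays, at 4.41 for ambient CO2, ample N, midnight replicate 4, at 1.89 for ambient CO2, limiting N, midday replicate 1 and at 1.72 for elevated CO2, limiting N, midnight replicate 1. No explanation was tested.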

How the results depend on the processing

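The lower average of all 4 genes at elevated CO2 kept its direction in all 42 alternatives run for each gene and its call in 40, the exceptions being both control-based centrings, with 0 of 4 calls each. Of the 42 alternatives, 33 only left out a single array and so share nearly all their data. The rest changed the scaling, the model or the probe sets, or left out both arrays that stand apart, and the lost calls were among these. The higher midday average was called for 2 of 4 genes after quantile normalization and for 1 with either the spike-ins or the hybridisation controls, the latter in the opposite direction. Adjusted p over the alternatives ran from 0.00315 to 0.532 for HPR, 0.00301 to 0.29 for LrgB, 0.00243 to 0.309 for AT1G11860 and 0.00178 to 0.496 for AT1G80380 for CO2, and from 1.16e-09 to 0.674, 4.81e-05 to 0.295, 0.000247 to 0.888 and 0.000217 to 0.339 for time. Why these values moved was not tested. The array number limits every interaction and N result.

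The share of all probe sets called under each alternative is not given here. Changed counts of the 4 genes therefore cannot be told apart from a general change in calls. Counts of the 4 genes called moved as follows. For time at ambient CO2 and ample N (1 as reported) they were 0 after quantile normalization and with the arrays of the groups compared alone, and 2 with array weights, without both arrays that stand apart and with the 3' to 5' ratio as covariate. At elevated CO2 and ample N the count of 1 became 0 after quantile normalization and with the compared groups alone, 2 without both arrays, 4 with array weights and 3 with the covariate, and ranged from 0 to 2 over arrays left out in turn. At ambient CO2 and limiting N, 1 became 0 after quantile normalization, 3 with array weights, 2 with the compared groups alone and without both arrays, and 4 with the covariate, ranging from 0 to 1 over arrays left out. The midnight CO2 average (4) gave 1 with array weights or the covariate, and 0 with the compared groups alone or without both arrays, and 0 to 4 over arrays left out. The midday CO2 average (0) gave 1 with array weights and 1 without both arrays. The CO2 average at limiting N (0) gave 1 without the dimmest probe sets, 2 with array weights and 0 to 2 over arrays left out. That at ample N (0), and the CO2 difference at ample N and midnight (0), each gave 0 to 2 over arrays left out. Of the pairs, the N count of 1 became 0 after quantile normalization, and the time count of 1 ranged from 1 to 2 over arrays left out.

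Over 106 pairs of arrays with the same replicate number in different groups, the correlation of deviations ran from -0.46 to 0.45 (median 0.013). It was over 0.1 in 28. Over 369 pairs of different replicate number it ran from -0.49 to 0.54 (median -0.001) and was over 0.1 in 74. The numbers were therefore not taken as a pairing. With the replicate block the average CO2 difference was -0.36 for HPR, -0.44 for LrgB, -0.43 for AT1G11860 and -0.37 for AT1G80380, with 4 of 4 called. The block gave 2 calls for time at elevated CO2 and ample N and 2 for the pairs in time. It turned the N difference at elevated CO2 and midday to -0.013 for HPR and -0.050 for LrgB.

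Signs that changed belong to results that had not passed, except for time. After quantile normalization the CO2 difference of HPR at limiting N and midday was 0.024. The N difference at ambient CO2 and midnight was then 0.085 for HPR, 0.052 for LrgB and 0.0017 for AT1G11860, and at elevated CO2 and midnight 0.081 for AT1G11860 and 0.036 for AT1G80380, whose average N difference was 0.012. Time was -0.069 for HPR and -0.0074 for AT1G11860 at ambient CO2 and limiting N and -0.090 for AT1G11860 at elevated CO2 and limiting N, -0.23 for GDCH3 (adjusted p = 0.000501) and -0.047 for PRK on average. The average CO2 difference of RCA was 0.0018, the CO2 by N term of LrgB at midday 0.0030 and the CO2 by time term of AT1G11860 0.0059. HPR minus LrgB in time was -0.043 and AT1G11860 minus AT1G80380 was -0.15.

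With array weights the N difference at elevated CO2 and midday was -0.041 for HPR and -0.045 for LrgB. At ambient CO2 and midnight it was 0.14 for LrgB and 0.052 for AT1G11860, and at elevated CO2 and midnight 0.074 for AT1G11860 and 0.028 for AT1G80380, whose CO2 by time term was -0.0098. Without both arrays the N difference at ambient CO2 and midnight was 0.0050 for HPR and 0.11 for LrgB, at elevated CO2 and midnight 0.12 for AT1G11860 and 0.083 for AT1G80380, and on average 0.00030 for AT1G80380, and the CO2 by time term was -0.020 for LrgB and -0.060 for AT1G80380. With the 3' to 5' covariate the midnight N difference was 0.066 for LrgB at ambient CO2 and 0.015 for AT1G11860 and 0.028 for AT1G80380 at elevated CO2, and the CO2 by time term of AT1G80380 was -0.012.

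Centred on the spike-ins, the average CO2 difference was 0.11 for HPR2, 0.14 for 10-FDF1 and 0.025 for RCA, and the time difference -0.059 for GDCH2, -0.17 for GDCH3 and -0.043 for 10-FDF1. Centred on the hybridisation controls, CO2 was 0.15 for HPR2, 0.18 for 10-FDF1 and 0.066 for RCA, and N was 0.034 for HPR, 0.096 for AT1G11860 and 0.15 for AT1G80380. Time was then -0.15 for LrgB, -0.23 for AT1G11860, -0.28 for AT1G80380, -0.43 for GDCH2, -0.54 for GDCH3, -0.32 for HPR2, -0.13 for BASS6, -0.42 for 10-FDF1, -0.34 for 10-FDF2, -0.018 for RCA and -0.15 for PRK.

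Over arrays left out in turn, the N difference ranged from -0.14 to 0.10 for HPR and -0.13 to 0.12 for LrgB at elevated CO2 and midday. At ambient CO2 and midnight it ranged from -0.23 to 0.0050 for HPR and -0.25 to 0.11 for LrgB, and at elevated CO2 and midnight from -0.19 to 0.12 for AT1G11860 and -0.15 to 0.083 for AT1G80380. The CO2 by N term ranged from -0.25 to 0.00024 for LrgB and -0.29 to 0.026 for AT1G11860 at midday, and from -0.035 to 0.28 for AT1G11860 and -0.012 to 0.24 for AT1G80380 at midnight. The CO2 by time term ranged from -0.13 to 0.038 for AT1G11860 and -0.0020 to 0.13 for AT1G80380, and the time average of GDCH3 from -0.00052 to 0.060.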
